A study of Homo sapiens with 4 samples.

Results

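Transcripts of 9 serpin genes (SERPINB2, SERPINA1, SERPINB1, SERPINB6, SERPINB8, SERPINB9, SERPINE2, SERPINF1 and SERPINH1) are described here, of 34 protein-coding serpin genes considered (AGT included) among the 67062 rows of the count table. The 9 genes were chosen by symbol with their values in the comparison of PIG-LONA with PIG-EMPTY already known, so those values are given as a description, without p-values. Where a listed gene is said to be past the threshold of adjusted p under 0.05, that is description too and no test of the gene. PIG-LONA cells were OCI-AML3 cells, a human acute myeloid leukaemia line that carries mutant NPM1, after transduction with a retroviral pMSCV-PIG vector that expresses the long noncoding RNA LONA. PIG-EMPTY cells, the control, received the same vector without an insert. In the vector an RNA polymerase II promoter drives the insert and a PGK promoter drives puromycin resistance and GFP, and cells of both groups were sorted for GFP before polyadenylated RNA was sequenced. Each group held 2 libraries from independent transductions of this single line, and the series title names myeloid differentiation as the process under study.

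The serpins are a family of proteins built on a common fold, most of which trap proteases. An inhibitory serpin offers an exposed loop as bait, the protease cuts it, and the cut serpin snaps into a new shape that holds the enzyme in a covalent complex. In myeloid cells, several serpins of clade B act inside the cell and guard it against its own granule proteases, while secreted serpins such as alpha-1-antitrypsin act outside. A few family members inhibit no protease and serve as chaperones or hormone precursors.

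Total counts per library lay between 29819572 and 38358442. Levels are given as CPM, which are counts scaled to the TMM-adjusted library total, and differences as log2 fold changes of PIG-LONA over PIG-EMPTY with the standard error (SE) of the fit. All 6 myeloid markers checked were above 1 CPM in every library, although MPO was low, with 63 and 107 counts in PIG-LONA and 83 and 84 counts in PIG-EMPTY. All 5 T cell markers were at 0, and the summed B cell, erythroid, fibroblast, and epithelial and liver markers did not exceed 1.10 CPM in any library. The level of LONA itself was not analysed here.

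SERPINB2 and SERPINA1 were the listed genes with the largest differences, and both were lower in PIG-LONA. The 250 bases before the RefSeq transcription starts of these genes, and of SERPINB8, the next serpin member beside SERPINB2 on chromosome 18, are shown so that the windows of the 2 genes with the largest differences can be set beside that of a near neighbour with a small one. Capitals mark matches to TATAAA, the TATA box letters, and to TGANTCA, the letters of an AP-1 site, on either strand. Sequences are from RefSeq on GRCh38.p14, 5′ to 3′ on the gene's strand, and SERPINA1 has an upstream and a downstream start.
SERPINB2, chr18:63887455-63887704, plus strand: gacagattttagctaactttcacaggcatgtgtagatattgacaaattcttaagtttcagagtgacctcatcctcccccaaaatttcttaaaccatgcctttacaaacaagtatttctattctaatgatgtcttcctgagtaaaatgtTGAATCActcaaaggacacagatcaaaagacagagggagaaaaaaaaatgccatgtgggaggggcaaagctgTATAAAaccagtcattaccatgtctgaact
SERPINB8, chr18:63969831-63970080, plus strand: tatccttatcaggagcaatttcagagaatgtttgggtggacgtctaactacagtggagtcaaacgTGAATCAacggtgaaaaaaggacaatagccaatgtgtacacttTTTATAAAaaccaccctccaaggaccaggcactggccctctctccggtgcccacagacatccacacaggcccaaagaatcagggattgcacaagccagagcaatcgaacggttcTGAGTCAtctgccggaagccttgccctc
SERPINA1 upstream start, chr14:94390636-94390885, minus strand: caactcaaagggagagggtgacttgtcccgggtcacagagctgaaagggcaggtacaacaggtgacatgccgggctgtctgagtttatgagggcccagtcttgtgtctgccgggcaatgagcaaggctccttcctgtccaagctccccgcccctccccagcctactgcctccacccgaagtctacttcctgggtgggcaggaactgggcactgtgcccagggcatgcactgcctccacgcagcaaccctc
SERPINA1 downstream start, chr14:94388603-94388852, minus strand: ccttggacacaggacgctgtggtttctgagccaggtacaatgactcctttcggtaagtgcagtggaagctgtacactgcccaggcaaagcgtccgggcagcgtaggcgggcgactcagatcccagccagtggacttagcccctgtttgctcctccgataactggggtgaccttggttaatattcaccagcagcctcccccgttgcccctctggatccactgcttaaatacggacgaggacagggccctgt

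In the SERPINB2 window the AP-1 letters begin at -102 and the TATA letters at -30 from the start. The SERPINB8 window held the AP-1 letters at 2 places, at -185 and -28, and the TATA letters on both strands in 2 overlapping matches. Neither SERPINA1 window held either motif. Among 35116 RefSeq windows of the same length, 10.7% held TATAAA and 6.57% held TGANTCA on at least 1 strand. Of the other members with a window, SERPINB9 held TATAAA at -30, and SERPINB1, SERPINB6, SERPINE2 and SERPINH1 held neither set of letters. A match describes the letters only, and nothing is drawn from it about a factor.

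SERPINB2 encodes plasminogen activator inhibitor 2, an inhibitor of urokinase that stimulated monocytes and macrophages make in large amounts, and spans bases 63871692 to 63903890 of chromosome 18 (GENCODE release 29, GRCh38). Its level was 7.22 and 8.01 CPM in PIG-LONA replicates 1 and 2, against 15.1 and 15.9 CPM in PIG-EMPTY replicates 1 and 2. Both PIG-LONA libraries were far below both PIG-EMPTY libraries, and within each group the libraries were close. The log2 fold change was -1.02 ± 0.09 (SE, n = 2 per group), a level 2.03-fold lower in PIG-LONA, and 146 of the 15918 tested genes had a lower value. SERPINB10, which encodes the nuclear serpin bomapin of blood cells, overlaps SERPINB2 on the same strand and shares 547 exonic bases with it, so reads in that stretch cannot be assigned with certainty. SERPINB10 had 62 and 72 counts in PIG-LONA and 52 and 67 counts in PIG-EMPTY. These counts overlap between the groups. SERPINB2 had 216 and 308 counts in PIG-LONA and 450 and 517 counts in PIG-EMPTY. In bulk RNA, fewer cells that make a transcript and less of it per cell cannot be told apart.

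SERPINA1 encodes alpha-1-antitrypsin, the secreted inhibitor of neutrophil elastase, which monocytes make beside the liver. It had 12.0 and 10.8 CPM in PIG-LONA, against 17.0 and 20.1 CPM in PIG-EMPTY. The groups did not overlap, and the PIG-EMPTY libraries differed from each other more than the PIG-LONA libraries did. Its log2 fold change was -0.71 ± 0.09 (SE, n = 2 per group), a level 1.63-fold lower in PIG-LONA. The gene lies on chromosome 14 (94376747 to 94390693), and counts per gene do not separate its starts.

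The gene patterns most like those of SERPINB2 and SERPINA1 were sought, where the mean count reached 50, by the Euclidean distance of centred log2 CPM over the 4 libraries. For SERPINB2 these were IGFBP5 (distance 0.0933), which encodes a binding protein of insulin-like growth factors, CR1 (0.172), the complement receptor gene, and CD163 (0.178), the haemoglobin scavenger receptor gene of macrophages. For SERPINA1 they were PPP1R26 (0.0503), SCD5 (0.0624), a fatty acid desaturase gene, and TYROBP (0.0753), a signalling adaptor gene of myeloid receptors. Their log2 fold changes lay between -1.05 and -0.87 for the first set and between -0.72 and -0.69 for the other, a direction that the measure of likeness fixes.

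**Figure D1:**
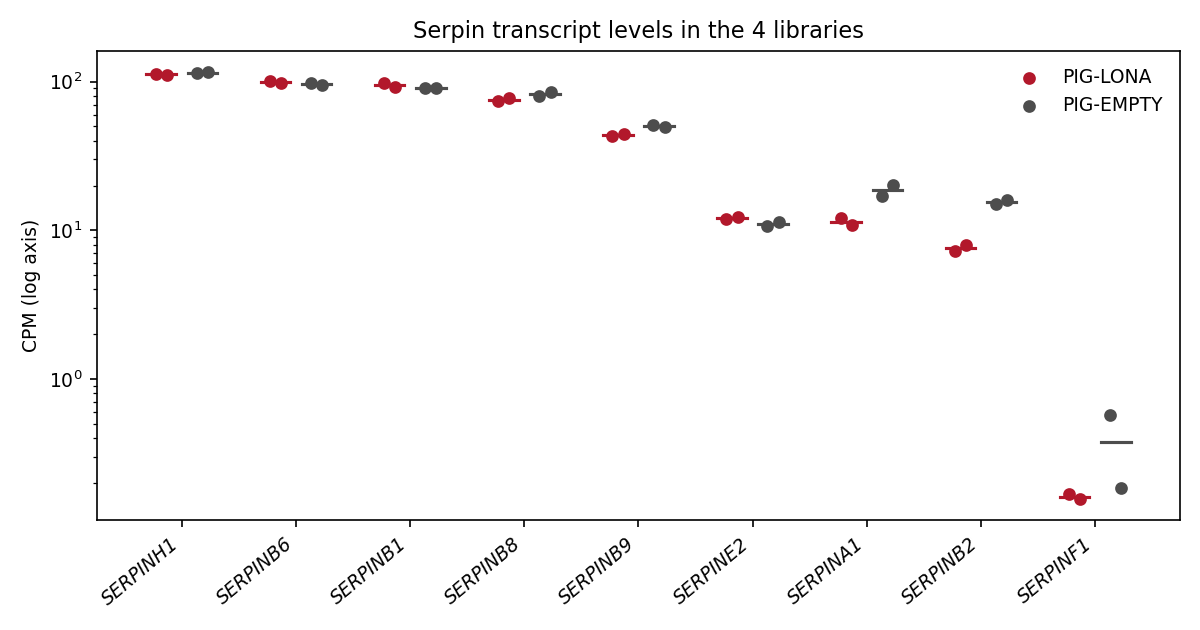
CPM (log axis) of the 9 serpin genes in each library, PIG-LONA in red and PIG-EMPTY in grey, with points for libraries and bars for group means. SERPINB2 (7.22 and 8.01 against 15.1 and 15.9 CPM) and SERPINA1 (12.0 and 10.8 against 17.0 and 20.1 CPM) stand apart by group, while SERPINH1, SERPINB6 and SERPINB1 sit near 100 CPM in all 4 libraries.

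SERPINB1 (2832332 to 2842006), SERPINB9 (2887266 to 2903280) and SERPINB6 (2948159 to 2972165) form a cluster on the minus strand of chromosome 6, in that order, with gaps of 45.3 and 44.9 kb between neighbours. All 3 encode internal guards of the cell against granule and cytotoxic proteases. SERPINB1, which inhibits neutrophil elastase, proteinase 3 and cathepsin G, had 97.8 and 92.0 CPM in PIG-LONA and 91.1 and 90.3 CPM in PIG-EMPTY. SERPINB6, an intracellular inhibitor of cathepsin G, had 101 and 98.6 CPM in PIG-LONA and 97.5 and 95.0 CPM in PIG-EMPTY. For both genes the PIG-LONA libraries were slightly above the PIG-EMPTY libraries, by less than 2 SE, with a log2 fold change of 0.06 ± 0.04 (SE) for SERPINB1 and 0.05 ± 0.04 (SE) for SERPINB6, both of which changed sign once the shift of the chromosome, given with its values after SERPINB9, was removed.

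SERPINB9, the inhibitor of granzyme B, lies between them. Its level was 43.0 and 44.6 CPM in PIG-LONA, against 51.2 and 49.8 CPM in PIG-EMPTY. The PIG-LONA libraries were both lower and close to each other, and the log2 fold change was -0.21 ± 0.05 (SE). The ratio of SERPINB9 to SERPINB6 CPM, which does not depend on library scaling, was 0.424 and 0.452 in PIG-LONA and 0.526 and 0.525 in PIG-EMPTY. SERPINB9 was past the threshold of the fit across all genes. It was not past it with the DESeq2 Wald test, without the filter on low counts, without PIG-EMPTY replicate 1 or without PIG-EMPTY replicate 2.

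Genes of chromosome 6 were higher in PIG-LONA as a whole, which bears on how these 3 values read. The median log2 fold change of the 799 tested genes of the chromosome was 0.17, against 0.00 over all 15918 tested genes, and 226 of the 799 passed higher (28.3%) and 14 lower (1.75%). Relative to that median, SERPINB1 lay at -0.10, SERPINB6 at -0.11 and SERPINB9 at -0.37. With the chromosome's shift removed from each library, the log2 fold changes of SERPINB1 and SERPINB6 were -0.11 and -0.12, the opposite sign, and that of SERPINB9 was -0.38. SERPINB9 is among the 14 genes of chromosome 6 that passed as lower in the fit without that correction.

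Genes within 1 Mb of the chromosome 6 serpins gave a local scale. Of 15 tested neighbours, 2 rose, while lower calls numbered 0 (edgeR, and 0 at an unadjusted p under 0.05), with a median log2 fold change of 0.19. RIPK1, a kinase gene of cell death signalling, rose by 0.34 ± 0.06 (edgeR adjusted p = 0.000602), and WRNIP1, a DNA replication stress gene, rose by 0.21 ± 0.05 (edgeR adjusted p = 0.00913). Both calls were lost with the shift of chromosome 6 removed, and that of WRNIP1 also without the filter on low counts (edgeR adjusted p = 0.0883) and without PIG-EMPTY replicate 2 (0.415), where 1 neighbour passed. Without PIG-LONA replicate 1 the number was 4. The 4 other near neighbours named by rule did not pass. NQO2, a quinone reductase gene, had a log2 fold change of 0.19 ± 0.09, the noncoding LINC01011 0.12 ± 0.24, the pseudogene HTATSF1P2 0.35 ± 0.20 and MYLK4, a myosin kinase gene, -0.55 ± 0.37. HTATSF1P2 passed without PIG-LONA replicate 1 (0.61, edgeR adjusted p = 0.0149) and changed sign without PIG-LONA replicate 2 (-0.04). LINC01011 changed sign without PIG-EMPTY replicate 1 (-0.10) and with the chromosome shift removed (-0.05), and MYLK4 was at 0.00 without PIG-LONA replicate 2.

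**Figure D2:**
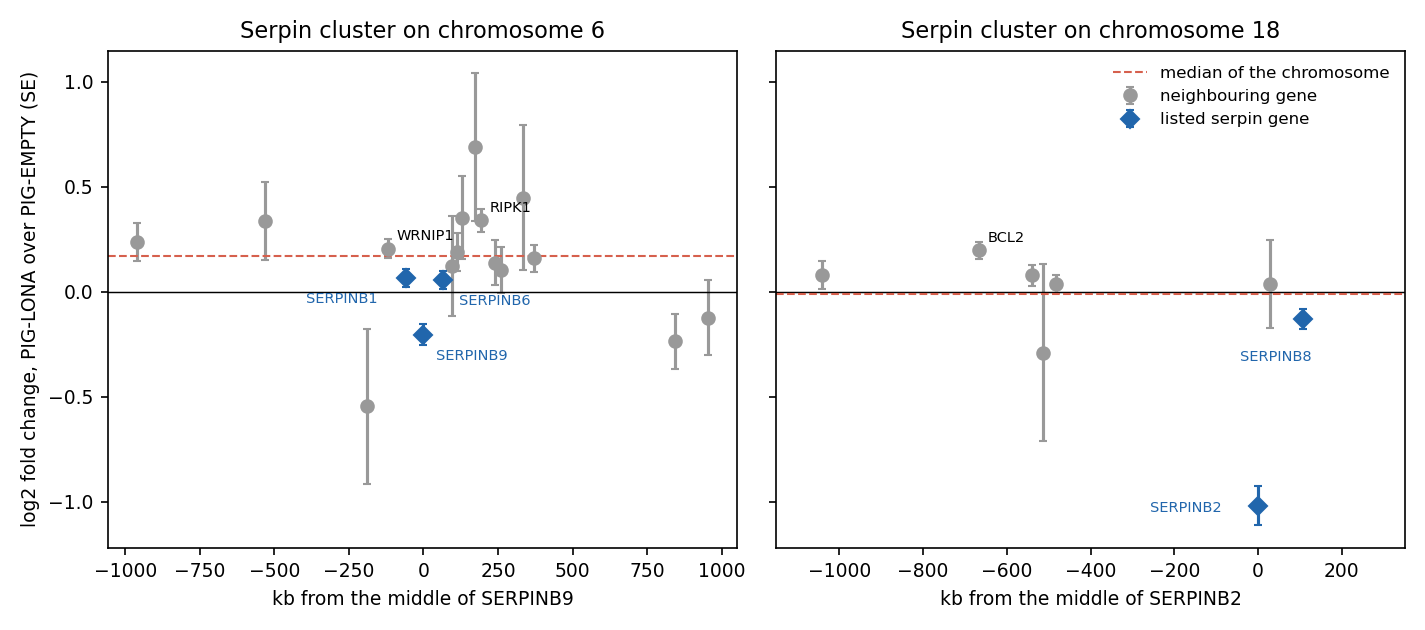
Log2 fold change of PIG-LONA over PIG-EMPTY with SE (vertical axis) for listed serpin genes and their tested neighbours within 1 Mb, by distance in kb from the middle of SERPINB9 (chromosome 6) or SERPINB2 (chromosome 18). SERPINB9 at -0.21 lies below the chromosome 6 median of 0.17 (dashed), and SERPINB2 at -1.02 lies below SERPINB8 at -0.13 and below its other neighbours.

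SERPINB8, which inhibits the proprotein convertase furin in vitro, lies 66.0 kb from SERPINB2 on chromosome 18 (63969925 to 64019779). It had 74.3 and 77.4 CPM in PIG-LONA and 80.3 and 85.7 CPM in PIG-EMPTY. The PIG-LONA libraries were lower by a small margin, with a log2 fold change of -0.13 ± 0.05 (SE), and the gene was past the threshold without PIG-LONA replicate 2 (-0.16) and in no other setting. The ratio of SERPINB2 to SERPINB8 CPM was 0.0971 and 0.103 in PIG-LONA, against 0.188 and 0.186 in PIG-EMPTY. This ratio did not overlap between the groups, but it largely restates the lower level of SERPINB2, for which no test was made, and is no separate result. SERPINB8 shares 370 exonic bases with HMSD, which had 0 and 0 counts in PIG-LONA and 0 and 2 counts in PIG-EMPTY.

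The neighbours within 1 Mb of the chromosome 18 serpins include a main survival gene of blood cells. Of 6 tested, BCL2, the apoptosis inhibitor gene, rose by 0.20 ± 0.04 (edgeR adjusted p = 0.00424), and lower calls numbered 0 (edgeR, and 0 at an unadjusted p under 0.05). The call of BCL2 was lost without PIG-EMPTY replicate 1 (edgeR adjusted p = 0.0877) and without PIG-EMPTY replicate 2 (0.0576), which left 0. VPS4B, of the membrane-scission machinery, had a log2 fold change of 0.04 ± 0.04, the sphingolipid enzyme gene KDSR 0.08 ± 0.05, the phosphatase gene PHLPP1 0.08 ± 0.07, SERPINB10 0.04 ± 0.21 and the noncoding KDSR-DT -0.29 ± 0.42, none of which passed. KDSR-DT lay at 0.01 without PIG-LONA replicate 2 and at 0.04 without PIG-EMPTY replicate 2. The median of chromosome 18 was -0.01 over 228 tested genes, of which 1.75% passed higher and 6.14% lower.

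SERPINE2, SERPINH1 and SERPINF1 are members of other clades. SERPINE2 (chromosome 2, 223975112 to 224039319) encodes protease nexin 1, a secreted inhibitor of thrombin and urokinase, and had 12.0 and 12.2 CPM in PIG-LONA and 10.6 and 11.4 CPM in PIG-EMPTY. It was the listed gene with the highest log2 fold change, 0.13 ± 0.09 (SE), with PIG-LONA above PIG-EMPTY by less than 2 SE. SERPINH1 (chromosome 11, 75562056 to 75572783) encodes HSP47, a collagen chaperone of the endoplasmic reticulum that inhibits no protease. Its level was 112 and 112 CPM in PIG-LONA and 114 and 116 CPM in PIG-EMPTY, a log2 fold change of -0.04 ± 0.04 (SE). SERPINF1 (chromosome 17, 1761959 to 1777574) encodes pigment epithelium-derived factor, another serpin without protease inhibition. It had 5 and 6 counts in PIG-LONA and 17 and 6 counts in PIG-EMPTY, too few to pass the filter on low counts, and a single PIG-EMPTY library held the higher count.

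Of the 9 listed genes, 8 passed the filter on low counts. Of these 8, 3 were past the threshold of adjusted p under 0.05 in the fit across all genes, all lower (SERPINB2, SERPINA1 and SERPINB9), beside 6.44% of all tested genes in either direction, 3.51% lower (558 genes) and 2.93% higher (467 genes). With the shift of chromosome 6 removed, all genes called split into 530 lower and 223 higher. Both PIG-LONA libraries lay on 1 side of both PIG-EMPTY libraries for all 8, an arrangement found for 48% of all tested genes. As the genes were chosen with this comparison known, nothing is read from these counts. The median log2 fold change of the 8 was -0.09, against 0.00 over all tested genes. With the DESeq2 Wald test or without the filter, 2 of them were past the threshold. Which genes were past it also changed with a library left out, as given for SERPINB9 and SERPINB8.

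The order of levels between genes was taken per length, as CPM per kb of the principal GENCODE transcript. Where a gene had several principal transcripts of equal rank, the longest was used. The lengths were 2619 bases for SERPINB1, 5620 for SERPINB6 and 3532 for SERPINA1. No other transcript was tried and transcript use was not measured, so the order between genes holds for these lengths only. SERPINB1 was highest in both groups, at 36.2 ± 1.56 CPM per kb in PIG-LONA and 34.6 ± 0.22 in PIG-EMPTY (SD, n = 2 each). SERPINH1 followed at 33.0 ± 0.10 in PIG-LONA and 34.0 ± 0.35 in PIG-EMPTY, then SERPINB8 at 21.8 ± 0.63 in PIG-LONA and 23.9 ± 1.10 in PIG-EMPTY. The order went on with SERPINB6 (17.8 in PIG-LONA and 17.1 in PIG-EMPTY) and SERPINB9 (10.6 in PIG-LONA and 12.3 in PIG-EMPTY). Among the 9 listed genes these first 5 places were the same in both groups, and their libraries did not overlap between neighbouring places. AGT, a serpin gene outside the list, stood at 15.5 in PIG-LONA, between SERPINB6 and SERPINB9, and at 18.2 in PIG-EMPTY, between SERPINB8 and SERPINB6.

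Below them the order changed between groups. In PIG-LONA, SERPINE2 at 5.51 ± 0.08 CPM per kb stood above SERPINB2 at 3.53 ± 0.26 and SERPINA1 at 3.24 ± 0.24. In PIG-EMPTY, SERPINB2 at 7.20 ± 0.26 stood above SERPINA1 at 5.25 ± 0.64 and SERPINE2 at 5.02 ± 0.26. The libraries of SERPINB2 and SERPINA1 overlapped in PIG-LONA, and those of SERPINA1 and SERPINE2 overlapped in PIG-EMPTY, so these pairs cannot be ordered. SERPINF1 was last in both groups, at 0.10 in PIG-LONA and 0.24 in PIG-EMPTY. Summed over the 9 genes without regard to length, so that the sum serves only to compare libraries, the level was 460 and 455 CPM in PIG-LONA and 478 and 485 CPM in PIG-EMPTY. SERPINB2 and SERPINA1 together made up 4.18% and 4.14% of that sum in PIG-LONA, against 6.71% and 7.44% in PIG-EMPTY.

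Beyond the listed genes, 25 other protein-coding serpin genes of the table were considered (AGT included). Of these, 5 were tested, 8 had counts too low to test and 12 had 0 counts in all 4 libraries, which allows at most 0.0782 to 0.101 per 1e+06 counts in a library (3 counts, counting error only). Among the 12 were SERPINA3, the gene of alpha-1-antichymotrypsin, and SERPIND1, the gene of heparin cofactor II. Of the 5 tested, 1 fell, beside 3.51% of all tested genes, and higher calls numbered 0 (edgeR, and 0 at an unadjusted p under 0.05), with a median log2 fold change of 0.04.

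AGT, which encodes the hormone precursor angiotensinogen, fell to 36.1 and 34.8 CPM in PIG-LONA, against 41.3 and 42.0 CPM in PIG-EMPTY (log2 fold change -0.24 ± 0.05, edgeR adjusted p = 0.00897). AGT lost its call with the DESeq2 Wald test (adjusted p = 0.0773) and with no filter on low counts (edgeR adjusted p = 0.0776). In both settings lower calls among the other serpin genes numbered 0. The call was also lost without PIG-EMPTY replicate 1 (log2 fold change -0.25) or PIG-EMPTY replicate 2 (-0.22).

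The other 4 did not pass. SERPINI2 had a log2 fold change of 0.39 ± 0.27, SERPING1, the C1 inhibitor gene of the complement system, 0.23 ± 0.31 and SERPINI1, the gene of neuroserpin, -0.45 ± 0.32, each at under 2 CPM in every library, and SERPINB10 was given above. The sign turned for SERPING1 without PIG-LONA replicate 2 (-0.31) and for SERPINB10 without PIG-LONA replicate 1 (-0.03) or PIG-EMPTY replicate 1 (-0.07). SERPINI2 shares 151 exonic bases with WDR49 on the same strand, so its counts are uncertain.

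**Figure D3:**
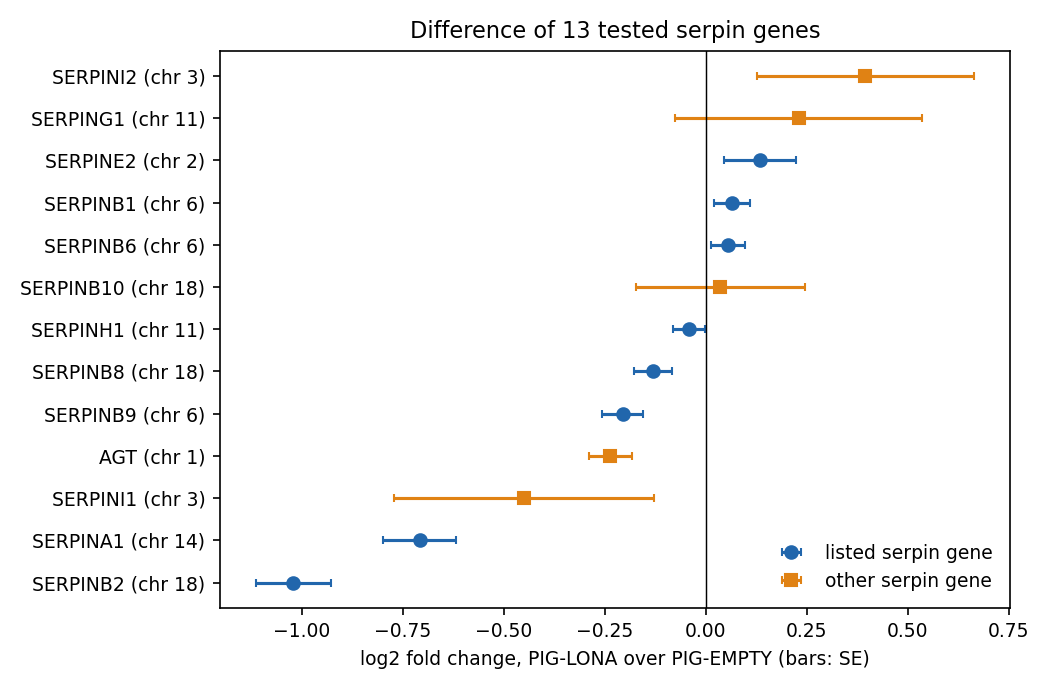
Log2 fold change of PIG-LONA over PIG-EMPTY with SE (horizontal axis) for 8 listed and 5 other serpin genes that were tested. SERPINB2 (-1.02) and SERPINA1 (-0.71) lie at the low end, and SE widens for genes with few counts such as SERPINI2 (0.39 ± 0.27).

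Neutrophil serine proteases include the granule enzymes that SERPINB1, SERPINB6 and SERPINA1 inhibit. The list used here also holds AZU1 and CFD, which are not among the targets named for these serpins. Of 5 tested neutrophil serine protease genes, 2 rose, PRTN3 and AZU1, and lower calls numbered 0 (edgeR, and 0 at an unadjusted p under 0.05), with a median log2 fold change of 0.10. Over all tested genes 2.93% passed higher and 3.51% lower. This list and those below were chosen with earlier results of these data known. PRTN3, AZU1, ELANE and CFD, the genes of the list with values above 0, all lie between bases 825097 and 863630 of chromosome 19. Other genes of that locus were not examined. PRTN3, which encodes proteinase 3, a target of SERPINB1 and SERPINA1, had 189 and 180 CPM in PIG-LONA, against 159 and 153 CPM in PIG-EMPTY (log2 fold change 0.25 ± 0.04, edgeR adjusted p = 0.000436). AZU1, which encodes azurocidin, a relative without protease activity, had a log2 fold change of 0.15 ± 0.04 (edgeR adjusted p = 0.0153). ELANE, the elastase gene, did not pass at 0.05 ± 0.04, nor did CTSG, the cathepsin G gene on chromosome 14, at -0.07 ± 0.04. CFD, named after its values were seen, did not pass at 0.10 ± 0.04. The number of higher genes was 1 without PIG-EMPTY replicate 1 or PIG-EMPTY replicate 2, where AZU1 lost its call (edgeR adjusted p = 0.0977 and 0.349, and 0.0856 without the filter on low counts), and 4 without PIG-LONA replicate 2, and 1 gene passed as lower without PIG-LONA replicate 1.

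Granzyme B, the target of SERPINB9, was close to undetected, as GZMB had 1 and 0 counts in PIG-LONA and 1 and 0 counts in PIG-EMPTY. GZMA, the granzyme A gene, was the single tested gene of the granzyme and perforin list, and fell to 15.6 and 13.4 CPM in PIG-LONA, against 19.8 and 21.6 CPM in PIG-EMPTY (log2 fold change -0.52 ± 0.08, edgeR adjusted p = 0.000337).

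Among 12 tested genes of plasminogen activation and clotting, 4 fell and higher calls numbered 0 (edgeR, and 0 at an unadjusted p under 0.05), with a median log2 fold change of -0.21 against 0.00 over all tested genes. Lower calls made up 3.51% of all tested genes. As the list was chosen with earlier results known, no test of it was made. THBD, the thrombomodulin gene, had 64.1 and 61.8 CPM in PIG-LONA, against 82.3 and 76.7 CPM in PIG-EMPTY (log2 fold change -0.34 ± 0.05, edgeR adjusted p = 0.000138). PROCR, the endothelial protein C receptor gene, fell by 0.76 ± 0.15 on the log2 scale (edgeR adjusted p = 0.00269). ANXA2, a cell surface receptor gene for plasminogen, fell by 0.18 ± 0.03 (edgeR adjusted p = 0.00287), and its call was lost without PIG-EMPTY replicate 2 (0.185). The fourth was S100A10, the partner of annexin A2 (-0.26 ± 0.05, edgeR adjusted p = 0.00357), named after its values were seen.

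The transcripts of the enzymes that SERPINB2 inhibits were scarce. PLAU, the urokinase gene, had 2.84 and 2.86 CPM in PIG-LONA and 3.79 and 3.39 CPM in PIG-EMPTY and did not pass (log2 fold change -0.33 ± 0.16, edgeR adjusted p = 0.291). PLAT, the tissue plasminogen activator gene, had 0 and 2 counts in PIG-LONA and 0 and 0 counts in PIG-EMPTY. PLAUR, the urokinase receptor gene, did not pass either (-0.04 ± 0.06, edgeR adjusted p = 0.781). Without PIG-LONA replicate 2, 1 gene of this list passed as higher.

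SERPINH1 acts in the endoplasmic reticulum beside enzymes that modify collagen. Of 23 tested genes of collagen chaperones and modifying enzymes, 2 fell (8.7%, beside 3.51% of all tested genes) and higher calls numbered 0 (edgeR, and 0 at an unadjusted p under 0.05), with a median log2 fold change of -0.01. They were the lysyl hydroxylase gene PLOD1 (-0.15 ± 0.04, edgeR adjusted p = 0.0362) and the collagen galactosyltransferase gene COLGALT2 (-1.34 ± 0.38, edgeR adjusted p = 0.0400), which was under 1 CPM in every library. Neither call held without PIG-LONA replicate 2, where 1 other gene passed as higher, nor without PIG-EMPTY replicate 2, so that 0 genes passed as lower in both cases. Without PIG-EMPTY replicate 1 the call of PLOD1 was lost (log2 fold change -0.17), as it was with the DESeq2 Wald test (adjusted p = 0.160). The call of COLGALT2 was lost without PIG-LONA replicate 1 (log2 fold change -1.16). Without the filter on low counts neither passed (edgeR adjusted p = 0.172 for PLOD1 and 0.143 for COLGALT2), and COLGALT2 did not pass with library totals (0.0503).

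Of 17 tested genes of other protease inhibitor families, 3 fell (17.6%, beside 3.51% of all tested genes) and higher calls numbered 0 (edgeR, and 0 at an unadjusted p under 0.05), with a median log2 fold change of -0.08. CSTA, the gene of the cysteine protease inhibitor cystatin A, had 94.2 and 93.0 CPM in PIG-LONA, against 114 and 122 CPM in PIG-EMPTY (log2 fold change -0.34 ± 0.04, edgeR adjusted p = 5.26e-05). SPOCK1, a proteoglycan gene, was at -0.39 ± 0.07 (edgeR adjusted p = 0.00103) and SPINT1, a Kunitz-type inhibitor gene, at -0.49 ± 0.13 (edgeR adjusted p = 0.0311). SPINT1 lost its call with no filter on low counts (edgeR adjusted p = 0.104) and with the DESeq2 Wald test (adjusted p = 0.249). Its call was also lost without PIG-LONA replicate 2 (log2 fold change -0.42), PIG-EMPTY replicate 1 (-0.50) or PIG-EMPTY replicate 2 (-0.48).

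Of 19 tested cysteine cathepsin and caspase genes, 4 fell and 1 rose, with a median log2 fold change of -0.08. Of all tested genes, 3.51% fell and 2.93% rose. CTSH was at -0.45 ± 0.05 (edgeR adjusted p = 2.19e-05), CTSS at -0.27 ± 0.05 (0.00161) and CTSZ at -0.22 ± 0.04 (0.00109), all lysosomal proteases. CTSL, the fourth that fell (-0.30 ± 0.06), and CASP2, the caspase gene that rose (0.17 ± 0.04), were named after their values were seen. CTSZ lost its call without PIG-EMPTY replicate 2 (edgeR adjusted p = 0.0898), and CTSS without the filter on low counts (0.0629). Higher calls numbered 0 without PIG-EMPTY replicate 1 or PIG-EMPTY replicate 2, and 7 genes fell without PIG-LONA replicate 2.

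**Figure D4:**
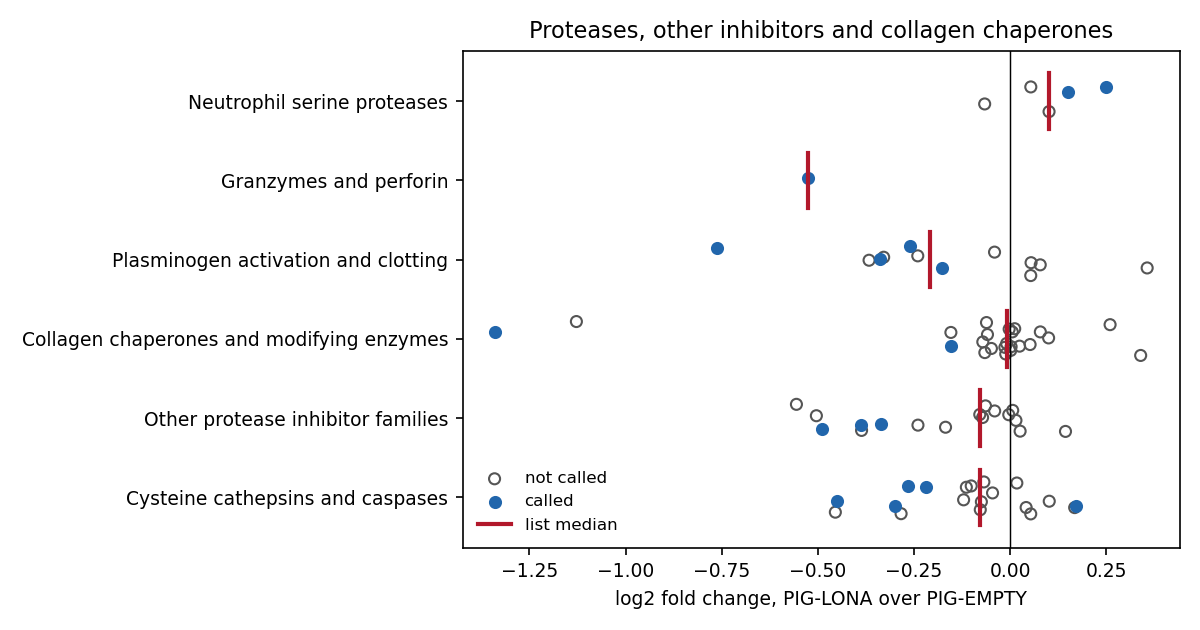
Log2 fold change of PIG-LONA over PIG-EMPTY (horizontal axis) for tested genes of the 6 protease, inhibitor and collagen lists, with filled points for genes past adjusted p under 0.05 and bars for list medians. The plasminogen activation and clotting list has its median at -0.21 with 4 of 12 genes lower, and the neutrophil serine protease list has its median at 0.10 with 2 of 5 genes higher. Over all tested genes 3.51% were lower and 2.93% higher.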

How the data were processed

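RNA from 4 libraries, 2 of PIG-LONA and 2 of PIG-EMPTY cells, was measured by RNA-seq. The authors deposited raw counts for each Ensembl gene with a column per library. Per the submitters' processing notes, the tools were FastQC 0.11.4, STAR 2.5 and HTSeq, and the build was hg38. Neither annotation release nor strand setting is given in the sources used, so reads of overlapping or antisense genes cannot be told apart. Of 67062 rows, 60357 had a symbol in the gene name table. Coordinates came from GENCODE release 29 (GRCh38, the assembly of hg38). No protein sequences were used here, and 1 serpin gene is not reported here.

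A filter (filterByExpr, minimum count 10, minimum total 15) left 15918 genes. They were tested with edgeR 4.0.16 (limma 3.58.1, R 4.3.3): TMM scaling, glmQLFit with legacy off and a two-sided glmQLFTest between the groups. P-values were adjusted by Benjamini-Hochberg over the 15918 genes, and 0.05 was the threshold. SE is the log2 fold change divided by the square root of F. The biological coefficient of variation, the spread beyond counting error, was 2.95%, and p-values measure the spread between transductions of 1 line. The chi-square per gene between libraries of a group was 4.32 in PIG-LONA and 1.77 in PIG-EMPTY, above counting noise in both groups and higher in PIG-LONA. All 4 libraries were kept.

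On simulated counts for this comparison (15677 genes tested) 48.0% of genes changed 1.2-fold, 71.4% changed 1.5-fold, 83.7% changed 2-fold and 98.0% changed 4-fold were recovered. Of 159 calls on these counts, 11 were false (6.92%). The data gave 1025 calls, with genes of chromosome 6 higher as a whole, so these shares describe the simulated counts only.

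Members and lists were chosen with earlier results of these data known. Genes outside the members were named by rule: every other tested serpin gene considered, up to 3 called genes with the smallest p per list, the 6 tested neighbours nearest to a member per locus, and the 3 genes most like each of the 2 members with the largest differences. Alternatives were DESeq2 1.42.0 size factors, library totals, the DESeq2 Wald test, a filter of 1 CPM in 2 libraries or none but 1 count, the replicate number as a block, the chromosome 6 shift removed, and each library left out.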

Additional observations from a re-analysis of the deposited data

How the results depend on the processing

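The log2 fold change of SERPINB2 ranged from -1.10 to -0.95 and that of SERPINA1 from -0.82 to -0.57 over the 11 other settings. As the members were chosen with this comparison known, such ranges describe them and test nothing. SERPINB8 (-0.17 to -0.08), SERPINB9 (-0.38 to -0.18), SERPINE2 (0.08 to 0.19) and SERPINH1 (-0.05 to -0.03) kept their sign in all 11, while SERPINB1 and SERPINB6 changed sign with the chromosome 6 shift removed. Of the 24 called genes named by rule outside the members, 12 kept their call in every setting that gave a value. Most of these called genes were named for a small p or for likeness to SERPINB2 or SERPINA1, so this count does not measure how often calls hold. Depth limits genes with few counts, such as COLGALT2 and SERPINF1.

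The number of all genes called, 1025, was 473 with the DESeq2 Wald test and 334 without the low-count filter, and ran from 466 to 2331 with a library left out. With the replicate number as a block it was 1101, and this replicate block changed no call of a gene named by rule. The labels give the numbers no shared batch, and the differences between replicates correlated at 0.08 between groups. The DESeq2 Wald test left 0 other serpins lower, 0 collagen genes lower and 0 cathepsin or caspase genes higher, and gave COLGALT2 no adjusted p. Without the filter these were 0, 0 and 0, with 1 neutrophil protease gene and 1 chromosome 6 neighbour higher. Library totals and the filter of 1 CPM left 1 collagen gene lower each. The chromosome 6 shift removed left 0 of its neighbours higher.

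With a library left out, the counts ran from 0 to 1 for other serpins lower, 1 to 4 for neutrophil proteases higher and 0 to 1 lower, 0 to 1 for plasminogen and clotting genes higher, 0 to 1 for collagen genes higher and 0 to 3 lower, 2 to 6 for other inhibitors lower, 0 to 1 for cathepsins and caspases higher and 3 to 7 lower, 1 to 4 for chromosome 6 neighbours higher and 0 to 1 for chromosome 18 neighbours higher. Such a fit compares 2 libraries with 1, so its estimate of the spread rests on the group that kept 2. For these changes the cause was not tested.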

Other observations

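Within a library, the ratio of a protease transcript to an inhibitor transcript does not depend on library scaling. The ratios are of CPM, without regard to length, and are compared only between the groups. All 7 pairs of PRTN3, ELANE or CTSG with SERPINA1 or SERPINB1, and of CTSG with SERPINB6, are given as values, with no test, and were set out after values of these genes were seen. Both PIG-LONA libraries were above both PIG-EMPTY libraries in 4 pairs and below them in 2, and the groups overlapped in 1. Of single tested genes 48% have groups apart, and no such share was taken for ratios. The pairs over SERPINA1 share a listed gene chosen with its lower level known (log2 fold change -0.71), so they are not separate results. Log2 fold changes were 0.25 for PRTN3, 0.05 for ELANE and -0.07 for CTSG. Over SERPINA1, PRTN3 was at 15.8 and 16.6 in PIG-LONA against 9.35 and 7.58 in PIG-EMPTY. ELANE over SERPINA1 was at 43.9 and 46.6 in PIG-LONA against 29.7 and 24.4 in PIG-EMPTY, and CTSG over SERPINA1 at 142 and 141 in PIG-LONA against 99.3 and 84.2 in PIG-EMPTY. The ratios over the intracellular inhibitors had no single direction. PRTN3 over SERPINB1 was higher in PIG-LONA, at 1.94 and 1.96, against 1.74 and 1.69 in PIG-EMPTY. ELANE over SERPINB1 overlapped, at 5.40 and 5.49 in PIG-LONA and 5.54 and 5.44 in PIG-EMPTY. CTSG over SERPINB1 was lower, at 17.4 and 16.6 in PIG-LONA against 18.5 and 18.8 in PIG-EMPTY, as was CTSG over SERPINB6, at 16.8 and 15.5 in PIG-LONA against 17.3 and 17.8 in PIG-EMPTY. SERPINB1 and SERPINB6 lie on chromosome 6, whose median log2 fold change was 0.17, and these ratios keep that shift. With it removed, SERPINB1 was at -0.11 and SERPINB6 at -0.12, both below CTSG at -0.07. The direction of the CTSG ratios over these 2 genes thus depends on the shift. Counts of transcripts say nothing of the amounts of active protein.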
